A study of Mus musculus with 16 samples.

Results

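The genes described here are 10 genes of glycolysis: the glucose transporter Slc2a1, the hexokinases Hk1 and Hk2, and Pfkp, Aldoa, Gapdh, Pgk1, Pgam1, Pkm and Ldha. They were chosen by name, and all 10 were found among the 49452 genes of the deposited tables. RNA sequencing (SmartSeq2) had been run on tdTomato-positive cells sorted from the left lung lobe of 16 mice aged 11 weeks, in 4 groups of 4. The mice carried a floxed tdTomato reporter (tdTomatoflox) with a tamoxifen-activated Cre recombinase driven by the Acta2 promoter (Acta2-CreERT2, called Acta2-tdT) or by the Pdgfra promoter (Pdgfra-CreERT2, called Pdgfra-tdT), and each had received saline or bleomycin, a drug that injures the lung, 14 days earlier. Acta2-tdT mice had eaten food with 400 mg/kg tamoxifen, starting 5 days after the instillation. Pdgfra-tdT mice had had 5 injections of 3 mg tamoxifen at 6 weeks of age. Acta2-tdT cells were therefore labelled during injury and Pdgfra-tdT cells before it, and line, labelling scheme and time of labelling cannot be told apart.

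Glycolysis splits glucose into pyruvate and yields ATP without oxygen. Glucose enters through transporters such as GLUT1, the product of Slc2a1, and is trapped as glucose 6-phosphate by hexokinase. Phosphofructokinase commits the sugar to the pathway, aldolase cleaves it, and GAPDH, phosphoglycerate kinase, phosphoglycerate mutase, enolase and pyruvate kinase carry the fragments to pyruvate, which lactate dehydrogenase can turn into lactate. Many of these genes are known targets of the hypoxia-inducible factors, and myofibroblasts of injured lung are known for high glycolytic activity.

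Values are FPKM (fragments mapped to a gene relative to transcript length and to all mapped fragments), a scale per length on which levels of different genes can be set side by side. The 21950 nuclear protein-coding genes together held 35603 to 57788 FPKM in Acta2-tdT saline mice, 231058 to 463127 in Acta2-tdT bleomycin mice, 29964 to 59840 in Pdgfra-tdT saline mice and 28512 to 137952 in Pdgfra-tdT bleomycin mice. This was 14.99% to 19.96% of all FPKM in Acta2-tdT saline, 30.4% to 48.2% in Acta2-tdT bleomycin, 13.5% to 18.7% in Pdgfra-tdT saline and 13.4% to 28.3% in Pdgfra-tdT bleomycin mice. Because that sum moved with treatment, each comparison was run on the deposited FPKM and on scaled FPKM, in which every mouse was brought to the same nuclear protein-coding sum of 49122. The median of 1443 olfactory and vomeronasal receptor genes, which lung cells should hardly express, was 0.323 to 0.332 FPKM in Acta2-tdT saline, 0.0134 to 0.122 in Acta2-tdT bleomycin, 0.175 to 0.336 in Pdgfra-tdT saline and 0.0917 to 0.317 in Pdgfra-tdT bleomycin mice, so values of that size were taken as near background. Both measures moved with treatment in Acta2-tdT mice, and their part in the results was not tested. Acta2 itself reached 139 to 314 FPKM in Acta2-tdT saline and 1229 to 3211 FPKM in Acta2-tdT bleomycin mice. Pdgfra was only 2.14 to 3.82 FPKM in Pdgfra-tdT saline and 0.977 to 2.45 FPKM in Pdgfra-tdT bleomycin mice, and Col1a1 there was at most 13.3 FPKM, so defining markers of PDGFRa fibroblasts were low in the Pdgfra-tdT libraries.

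As deposited, the glycolysis genes took a larger part of the protein-coding signal of Acta2-tdT cells after bleomycin. The 10 genes held 0.128%, 0.116%, 0.128% and 0.190% of the nuclear protein-coding FPKM in the 4 saline mice and 0.436%, 0.377%, 0.501% and 0.528% in the 4 bleomycin mice. Every bleomycin mouse lay above every saline mouse. This also held without Gapdh, at 0.0805% to 0.145% against 0.304% to 0.419%. The FPKM of near-identical copies were then added to each gene, a step chosen after the values were seen. The sum came to 0.328% to 0.412% of the nuclear protein-coding sum in saline mice and 0.405% to 0.542% in bleomycin mice, so that the groups overlapped. Most copies are pseudogenes outside the nuclear protein-coding sum, so these percentages are not shares of it. Gapdh with its copies made up 54.4% to 73.6% of the added-up FPKM in saline mice and 21.7% to 24.5% in bleomycin mice. In Pdgfra-tdT cells the share was 0.0664%, 0.0796%, 0.150% and 0.0805% with saline and 0.235%, 0.207%, 0.291% and 0.0820% with bleomycin. Bleomycin mice 5, 6 and 7 lay above all saline mice of that line, while bleomycin mouse 8 stayed within their range. Counting the copies, the percentages in Pdgfra-tdT mice were 0.569%, 0.546%, 0.305% and 0.472% under saline and 0.274%, 0.395%, 0.599% and 0.504% after bleomycin. Gapdh with its copies made up 55.2% to 89.1% of the added-up FPKM in these saline mice and 33.8% to 85.7% in the bleomycin mice. The bleomycin mice were then not above the saline mice, and Pdgfra-tdT saline mice 1 and 2 and bleomycin mouse 7 lay above every Acta2-tdT bleomycin mouse. In bulk samples, fewer cells of a type and less RNA per cell cannot be told apart.

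**Figure D1:**
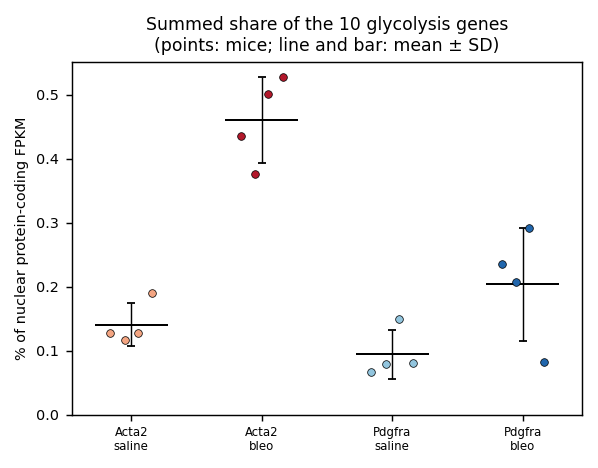
Share of nuclear protein-coding FPKM held by the 10 glycolysis genes (percent, vertical axis) in each mouse of the 4 groups. Points are mice, and lines and bars are group means ± SD. The Acta2-tdT bleomycin mice sit between 0.377% and 0.528%, above all other mice on these values, which leave out the copies, and 1 Pdgfra-tdT bleomycin mouse (0.0820%) sits with the saline mice.

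The first comparison asked how glycolysis genes of Acta2-tdT cells differed between injured and saline-treated lung. On the deposited FPKM, 10 of 10 genes were higher with bleomycin (limma, adjusted p under 0.05), as were 70.4% of the 12523 genes tested. Their median log2 difference was 3.87, against 1.76 over all genes tested. On scaled FPKM, 7 of the 10 rose, with 23.9% of all genes tested, and the members' median was 1.09 against -0.02 over all genes. Hk1 and Hk2 entered the test only through their bleomycin values, so a higher deposited FPKM was bound to follow for them. Slc2a1 also needed its bleomycin values to enter, with 1 saline mouse at 1 FPKM or more. With the copies added, 6 members rose and 1, Gapdh, fell on scaled FPKM.

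Slc2a1 (ENSMUSG00000028645, chromosome 4 of GRCm38 from 119108711 to 119137983, plus strand), which encodes the main glucose importer of many cell types, was at 0.331, 0.0728, 0.764 and 1.07 FPKM in Acta2-tdT saline mice and at 14.2, 4.50, 16.7 and 24.5 FPKM in bleomycin mice. Saline mice 1 and 2 lay near background, and all bleomycin values lay above all saline values. Among saline mice only mouse 4 reached 1 FPKM. Slc2a1 thus passed the filter through its bleomycin values, which favoured a higher deposited FPKM. The log2 difference of the deposited FPKM was 3.20 ± 0.46 (SE, limma, adjusted p = 8.87e-05), and that of the scaled FPKM was 0.90 ± 0.24 (SE, adjusted p = 0.0096).

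Hexokinases behaved differently on the 2 scales. Hk1 (ENSMUSG00000037012, chromosome 10 of GRCm38 from 62268855 to 62379908, minus strand), the hexokinase found in most tissues, went from 0.298, 0.128, 0.691 and 0.409 FPKM to 1.33, 2.76, 2.90 and 3.97 FPKM with bleomycin. Hk2 (ENSMUSG00000000628, chromosome 6 of GRCm38 from 82725025 to 82774454, minus strand), the form known to respond to growth signals and hypoxia, went from 0.148, 0.139, 0.265 and 0.159 FPKM to 2.61, 1.12, 3.49 and 2.72 FPKM. Both sets of saline values were near background and did not overlap with the bleomycin values, and log2 differences of the deposited FPKM were 1.40 ± 0.25 (SE) for Hk1 and 1.51 ± 0.23 (SE) for Hk2. Scaled, Hk1 covered 0.176 to 0.699 FPKM with saline and 0.206 to 0.586 FPKM with bleomycin, a log2 difference of -0.02 ± 0.13 (SE, adjusted p = 0.925). Scaled Hk2 covered 0.135 to 0.268 FPKM with saline and 0.238 to 0.403 FPKM with bleomycin, a log2 difference of 0.15 ± 0.07 (SE, adjusted p = 0.0858). With the receptor median subtracted before scaling, a step chosen after the values were seen, that of Hk2 was 0.37 (adjusted p = 0.000311). Each saline value of Hk2 lay below the receptor median of its mouse (0.323 to 0.332 FPKM), so the subtraction removed all of it. The saline group then had no spread, and this p was set by that step.

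Pfkp (ENSMUSG00000021196, chromosome 13 of GRCm38 from 6579768 to 6648777, minus strand), the platelet-type phosphofructokinase, had 1.60, 1.04, 1.47 and 2.76 FPKM in saline mice and 15.4, 8.0, 39.9 and 36.9 FPKM in bleomycin mice. All bleomycin mice were higher, with mouse 6 the lowest of them. The log2 difference was 3.04 ± 0.49 (SE, adjusted p = 0.000204) on the deposited FPKM. Scaled values ran from 1.44 to 2.35 FPKM with saline and from 1.70 to 4.50 FPKM with bleomycin, so that the groups overlapped (log2 difference 0.49 ± 0.25 SE, adjusted p = 0.129). Without bleomycin mouse 6 the scaled difference was 0.67 (adjusted p = 0.0368).

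Aldoa (ENSMUSG00000030695, chromosome 7 of GRCm38 from 126795234 to 126808875, minus strand), the aldolase of muscle and many other cells, had 9.02, 9.07, 16.2 and 29.8 FPKM with saline and 199, 161, 362 and 427 FPKM with bleomycin. Scaled, it had 12.03, 12.5, 16.3 and 25.4 FPKM against 30.7, 34.3, 40.8 and 45.3 FPKM. The groups were apart on both scales, and the mean scaled level was 2.28-fold higher (log2 difference 1.19 ± 0.31 SE, adjusted p = 0.00905). The scaled call was lost with all 16 mice in 1 fit (adjusted p = 0.166).

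Gapdh (ENSMUSG00000057666, chromosome 6 of GRCm38 from 125161853 to 125166467, minus strand), the dehydrogenase that makes the NADH of glycolysis and a common reference gene, had 13.9, 12.6, 18.3 and 26.5 FPKM with saline and 264, 169, 464 and 505 FPKM with bleomycin. Its scaled values were 17.3 to 22.5 FPKM against 36.0 to 53.5 FPKM, again without overlap. Its mean scaled level was 2.37-fold higher (log2 difference 1.19 ± 0.26 SE, adjusted p = 0.00377). Gapdh has many processed copies in the mouse genome: 177 other genes of the GENCODE annotation matched its transcripts over at least 200 bases at 90% identity or more, and 171 of these were pseudogenes. The summed FPKM of the copies listed in the tables was 299% to 702% of that of Gapdh in Acta2-tdT saline mice and 12.5% to 35.9% in bleomycin mice, and 66.4% to 1335% over the Pdgfra-tdT mice. Reads shared with the copies could have been divided among them when FPKM were made, so low Gapdh values are uncertain. With the copies added, the saline mice had 89.8 to 149 scaled FPKM of Gapdh and the bleomycin mice 48.1 to 60.2, and the log2 difference turned to -1.12 (limma, adjusted p = 0.00808). The direction of scaled Gapdh therefore rests on how its copies are counted, while on the deposited FPKM it stayed higher (1.85, adjusted p = 0.00139). The added sum runs over 173 copies. The median receptor gene, taken as background, held 0.323 to 0.332 FPKM in these saline mice and 0.0134 to 0.122 FPKM in the bleomycin mice. How much of the added sum is background was not tested. Reads can also be shared for Ldha, which had 13 copies, and for Pkm, which had 9. In Acta2-tdT mice the copies of Ldha summed to 11.3% to 68.0% of its FPKM with saline and 0.145% to 0.577% with bleomycin, and in Pdgfra-tdT mice to 10.8% to 202% and 1.71% to 102%. Those of Pkm summed to 13.7% to 53.9% and 0.300% to 2.68% in Acta2-tdT mice and to 28.4% to 265% and 2.31% to 226% in Pdgfra-tdT mice. With the copies added, the scaled log2 differences in Acta2-tdT cells were 2.13 for Ldha (adjusted p = 0.000144) and 1.36 for Pkm (adjusted p = 0.00309). Aldoa had 6 such copies, Pgk1 4 and Pgam1 3, while Slc2a1, Hk1, Hk2 and Pfkp had 0.

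Pgk1 (ENSMUSG00000062070, chromosome X of GRCm38 from 106187100 to 106203699, plus strand), the first ATP-yielding enzyme of the pathway, had 0.910, 0.812, 1.50 and 1.84 FPKM with saline and 21.8, 17.9, 33.3 and 35.4 FPKM with bleomycin. Its scaled levels were even within each group, with 1.21, 1.12, 1.52 and 1.56 FPKM under saline and 3.37, 3.81, 3.76 and 3.75 FPKM with bleomycin. The groups were apart by more than the spread within either, and the mean scaled level was 2.71-fold higher (log2 difference 0.99 ± 0.16 SE, adjusted p = 0.000445).

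Pgam1 (ENSMUSG00000011752, chromosome 19 of GRCm38 from 41911871 to 41918664, plus strand), the mutase of the next step, had 5.45, 4.88, 4.06 and 8.84 FPKM with saline and 125, 79.6, 199 and 205 FPKM with bleomycin. Scaled, it covered 4.11 to 7.52 FPKM against 16.9 to 22.4 FPKM. Its groups did not overlap, and the mean scaled level was 3.13-fold higher (log2 difference 1.53 ± 0.26 SE, adjusted p = 0.000675).

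Pkm (ENSMUSG00000032294, chromosome 9 of GRCm38 from 59656368 to 59679375, plus strand), the pyruvate kinase gene from which both the M1 and the M2 form are spliced, had 6.59, 4.28, 6.99 and 12.8 FPKM with saline and 155, 97.6, 350 and 336 FPKM with bleomycin. Scaled, it covered 5.91 to 10.9 FPKM against 20.7 to 39.5 FPKM. All bleomycin mice were higher, and the mean scaled level was 3.67-fold higher (log2 difference 1.74 ± 0.31 SE, adjusted p = 0.000952). Values per gene do not separate the splice forms.

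Ldha (ENSMUSG00000063229, chromosome 7 of GRCm38 from 46845839 to 46855627, plus strand), which encodes the lactate dehydrogenase subunit known for making lactate, differed most among the members. It had 8.95, 8.24, 11.9 and 25.9 FPKM with saline and 590, 329, 712 and 870 FPKM with bleomycin, so the lowest bleomycin mouse was far above the highest saline mouse. Its log2 difference was 5.46 ± 0.48 (SE, limma, adjusted p = 1.35e-05) on the deposited FPKM. Scaled, it had 11.9, 11.4, 12.05 and 22.0 FPKM with saline and 91.0, 70.03, 80.3 and 92.2 FPKM with bleomycin. That is a 5.82-fold higher mean level (log2 difference 2.50 ± 0.30 SE, adjusted p = 8.3e-05).

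**Figure D2:**
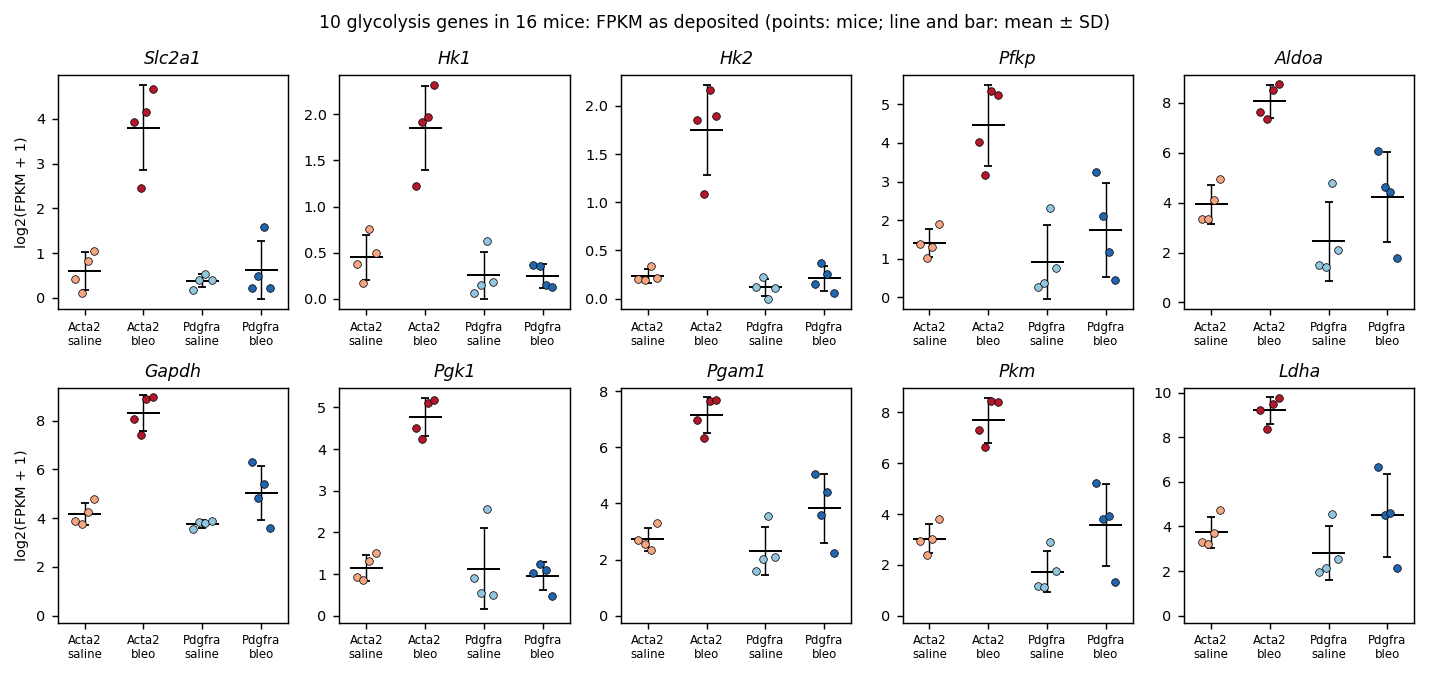
Deposited FPKM of the 10 glycolysis genes in each mouse of the 4 groups, as log2(FPKM + 1) on the vertical axis. Points are mice, and lines and bars are group means ± SD. In Acta2-tdT cells every bleomycin mouse lies above every saline mouse for all 10 genes.

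**Figure D3:**
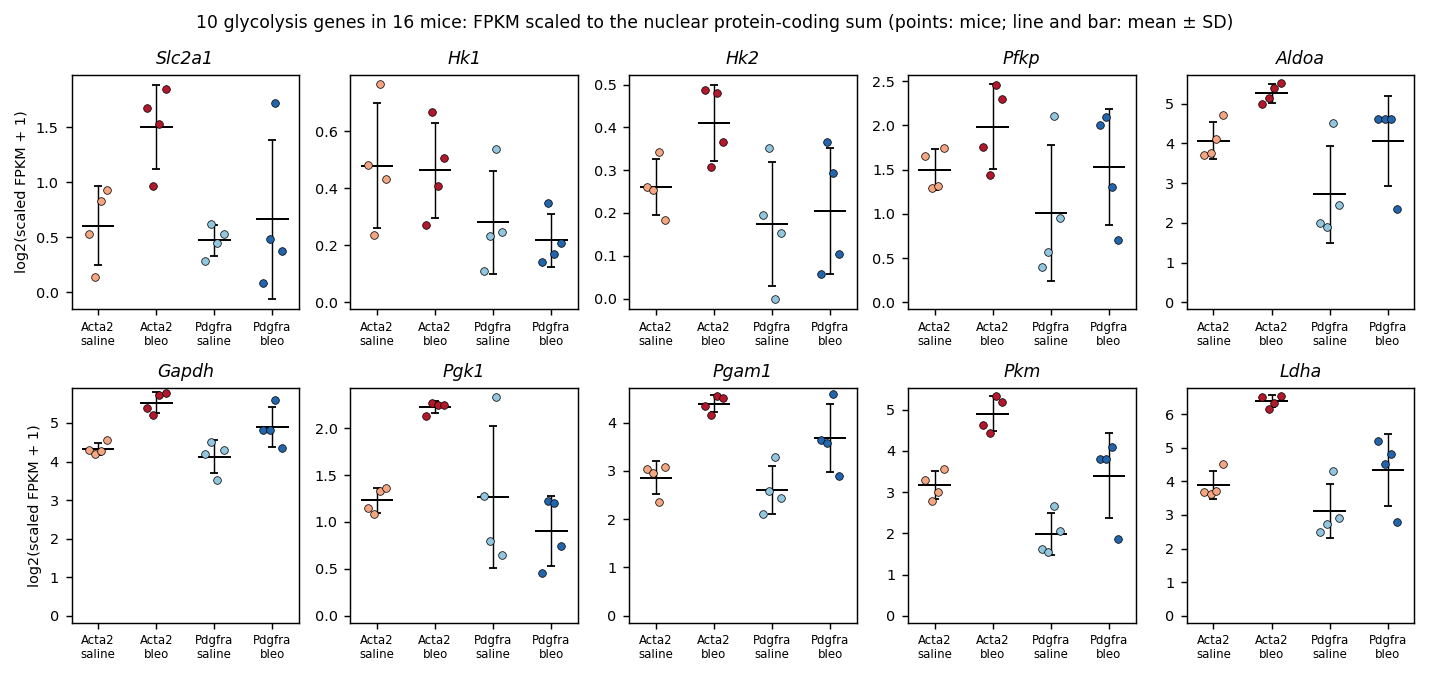
The same genes as log2(scaled FPKM + 1) on the vertical axis, with mice as points and group means ± SD as lines and bars. The Acta2-tdT groups stay apart for Slc2a1, Aldoa, Gapdh, Pgk1, Pgam1, Pkm and Ldha and overlap for Hk1, Hk2 and Pfkp.

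On the deposited FPKM, bleomycin and saline mice of the Acta2-tdT line did not overlap for 10 of 10 members, against 67.8% of all genes tested in which every bleomycin mouse was the higher. On scaled FPKM this held for 7 members, against 21.5% of all genes. The exact two-sided permutation p of a gene whose groups do not overlap was 0.0286 with 4 mice against 4, the smallest this design allows. Markers of proliferation and of other cells were read beside these genes. Scaled proliferation markers summed to 6.13 to 8.82 FPKM with saline and 20.5 to 28.5 FPKM with bleomycin, and 7 of 8 tested were higher (8 of 8 deposited). Of the leukocyte markers, 13 of 13 tested were higher on deposited FPKM, while on scaled FPKM 6 were higher (among them the macrophage genes Lyz2, C1qb and Ctss) and 2 were lower, the neutrophil genes S100a8 and S100a9. The summed scaled level of all 15 leukocyte markers was 1270 to 1776 FPKM with saline and 925 to 1644 FPKM with bleomycin. None of the leukocyte markers named here was at 0 in an Acta2-tdT group, and the part of these cells in the result was not tested. Among PDGFRa fibroblast markers, 6 of 6 tested were higher on both scales, and their scaled sum went from 25.4 to 33.1 FPKM to 219 to 333 FPKM. Endothelial markers were higher for 5 of 5 tested on deposited FPKM and lower for 2 on scaled FPKM, with scaled sums of 15.6 to 22.8 FPKM with saline and 5.72 to 12.1 FPKM with bleomycin. Of the smooth muscle markers, 6 of 7 were higher on deposited FPKM, and 1 was higher and 2 lower on scaled FPKM (median -0.37). Scaled Acta2 covered 186 to 267 FPKM in saline and 223 to 341 FPKM in bleomycin mice, and was not called (log2 difference 0.14 ± 0.28 SE, adjusted p = 0.693). The part of these cells was not tested either.

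Because a ratio of members within a mouse does not depend on the scaling, ratios to Gapdh were computed, a choice made after the values were seen. The ratio of Ldha to Gapdh was 0.642, 0.656, 0.652 and 0.978 in Acta2-tdT saline mice and 2.24, 1.95, 1.53 and 1.72 in bleomycin mice. Ldha was thus below Gapdh in each saline mouse and above it in each bleomycin mouse. The log2 difference was 1.36 (p = 0.0286 by the exact two-sided permutation test, or 0.0857 after adjustment over 36 ratio tests). The ratio of Pkm to Gapdh ranged from 0.341 to 0.484 with saline and from 0.576 to 0.755 with bleomycin, and that of Pgam1 to Gapdh 0.222 to 0.392 and 0.405 to 0.474. Neither pair of ranges overlapped (exact permutation p = 0.0286 each, adjusted p = 0.0857). The ratio of Aldoa to Gapdh ranged from 0.648 to 1.13 with saline and from 0.755 to 0.953 with bleomycin, a log2 difference of 0.01 (exact permutation p = 0.971). Ldha over Ldhb, the gene of the other main lactate dehydrogenase subunit, ranged from 1.43 to 3.59 with saline and from 16.2 to 36.9 with bleomycin (exact permutation p = 0.0286, adjusted p = 0.0857). All 36 adjusted values were at or above 0.0857, as 70 labellings can give no p under 0.0286. Since Gapdh has the most copies, a read divided between Gapdh and its copies moves each ratio to Gapdh, and more so in saline mice. With the copies added to every member, Ldha over Gapdh ran from 0.108 to 0.273 in saline and from 1.36 to 1.89 in bleomycin mice, and Aldoa over Gapdh 0.0835 to 0.284 and 0.638 to 0.754.

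**Figure D4:**
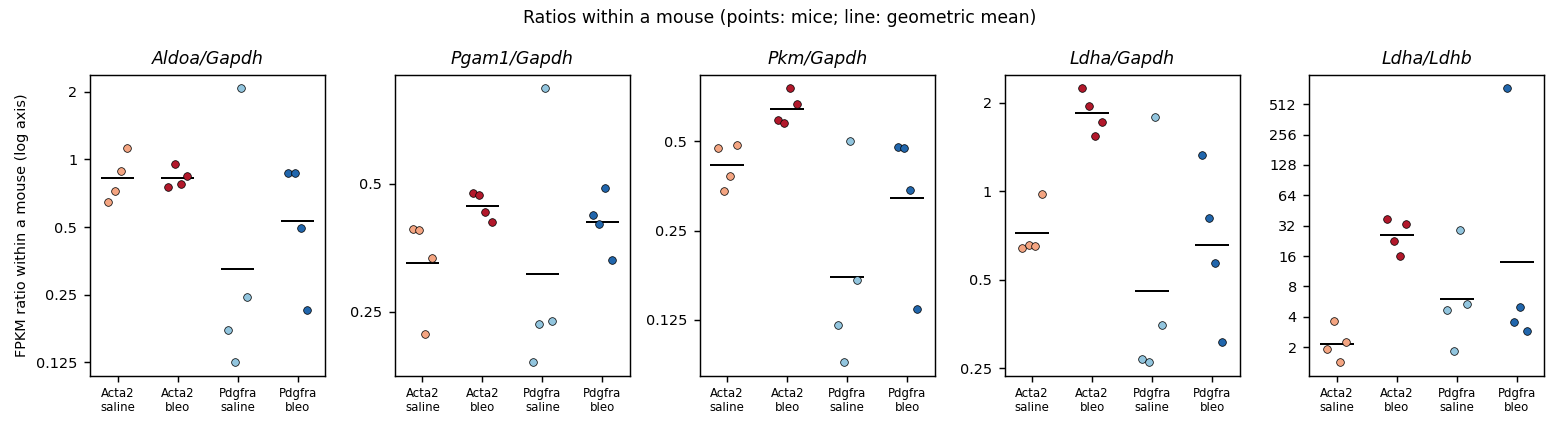
FPKM ratios of Aldoa, Pgam1, Pkm and Ldha to Gapdh and of Ldha to Ldhb in each mouse (vertical axis, log scale), with mice as points and geometric means as lines. The 4 Acta2-tdT bleomycin mice reach 1.53 to 2.24 for Ldha over Gapdh, above the 0.642 to 0.978 of the saline mice.

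The order of the levels also differed, though the place of Gapdh in it rests on the copies. In Acta2-tdT saline mice the mean FPKM fell from Gapdh (17.8) through Aldoa (16.02) and Ldha (13.7) to Pkm (7.67) and Pgam1 (5.81), and Gapdh was above Aldoa in 3 of 4 mice only. In Acta2-tdT bleomycin mice it fell from Ldha (625) through Gapdh (350), Aldoa (287) and Pkm (235) to Pgam1 (152), and each of these genes was above the next in 4 of 4 mice. Pgk1 (27.1 FPKM) and Pfkp (25.1 FPKM) followed without a clear order, each the higher in 2 of 4 mice. Hk1 and Hk2 came last in all 4 groups. Of the members' summed FPKM, Ldha made up 19.6% in the median Acta2-tdT saline mouse and 36.7% in the median bleomycin mouse, and Gapdh 29.5% and 20.0%. With the copies added, these shares were 9.74% and 35.0% for Ldha and 70.6% and 23.0% for Gapdh.

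Of the members, 6 rose in Acta2-tdT cells on both scales with or without their copies. The promoters of all 10, whether they rose or not, were searched for ACGTG, the core letters of the hypoxia response element, on both strands (CACGT on the reverse). RefSeq windows of 300 bases, 250 before and 50 after a start on GRCm38.p6, were at hand for 10 of 10 members, and 9 of 10 had a match in at least 1 window, against 21.8% of the 27025 genes with a window. The gene with no match was Pfkp, while Hk1 and Hk2, also not called on scaled FPKM in Acta2-tdT cells, had 2 matches each. Among the hypoxia-induced genes outside glycolysis, 10 of 12 had a match, and among the other glycolysis enzymes, 4 of 17. A match is a description of the letters and not a binding site, and these 5 letters also lie within CACGTG, the E-box bound by MYC and related factors. The windows below are those of Ldha, the member that differed most, Pgk1 and Slc2a1, and of Pfkp for contrast, read in the direction of the gene, with matches in capitals. They lie at chr7:46845554-46845853 (Ldha, plus strand), chrX:106186850-106187149 (Pgk1, plus strand), chr4:119108495-119108794 (Slc2a1, plus strand) and chr13:6648722-6649021 (Pfkp, minus strand).
Ldha: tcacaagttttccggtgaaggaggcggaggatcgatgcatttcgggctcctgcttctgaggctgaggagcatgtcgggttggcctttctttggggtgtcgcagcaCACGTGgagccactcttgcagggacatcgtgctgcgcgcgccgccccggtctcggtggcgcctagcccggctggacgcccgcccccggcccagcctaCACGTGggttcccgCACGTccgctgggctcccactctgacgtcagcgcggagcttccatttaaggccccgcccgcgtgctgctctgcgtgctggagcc
Pgk1: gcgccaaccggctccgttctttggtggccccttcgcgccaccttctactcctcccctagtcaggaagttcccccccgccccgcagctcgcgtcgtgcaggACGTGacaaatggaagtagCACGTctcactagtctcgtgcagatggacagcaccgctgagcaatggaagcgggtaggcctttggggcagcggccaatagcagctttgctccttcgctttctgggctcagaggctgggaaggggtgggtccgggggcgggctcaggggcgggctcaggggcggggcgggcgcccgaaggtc
Slc2a1: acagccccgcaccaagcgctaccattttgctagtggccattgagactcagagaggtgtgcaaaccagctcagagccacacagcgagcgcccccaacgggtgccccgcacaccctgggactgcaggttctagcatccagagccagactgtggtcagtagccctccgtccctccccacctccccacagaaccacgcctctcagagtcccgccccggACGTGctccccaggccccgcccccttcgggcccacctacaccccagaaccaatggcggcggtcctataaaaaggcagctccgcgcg
Pfkp: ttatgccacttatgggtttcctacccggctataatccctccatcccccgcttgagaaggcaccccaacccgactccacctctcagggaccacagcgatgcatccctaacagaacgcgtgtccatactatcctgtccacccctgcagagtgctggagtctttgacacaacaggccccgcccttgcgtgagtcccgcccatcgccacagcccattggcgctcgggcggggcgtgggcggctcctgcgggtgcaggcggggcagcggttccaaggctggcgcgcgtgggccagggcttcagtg
Ldha had a second window at chr7:46846832-46847131, with 0 matches. The Ldha window shown holds 5 matches, 4 of them as CACGTG read on both strands, the Pgk1 window 2 and the Slc2a1 window 1.

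The second comparison set Acta2-tdT against Pdgfra-tdT cells of bleomycin-treated mice, and it shares the Acta2-tdT bleomycin mice with the first. On the deposited FPKM all 10 members were higher in Acta2-tdT cells, with 71.0% of the 11995 genes tested, and their median log2 difference was 3.32 against 1.81 over all genes. Hk1 and Hk2 again entered this test, and that of the interaction, only through the Acta2-tdT bleomycin mice. Slc2a1 also needed those mice in both tests. In the other groups only Acta2-tdT saline mouse 4 (1.07 FPKM) and Pdgfra-tdT bleomycin mouse 7 (1.98 FPKM) reached 1 FPKM of it. On scaled FPKM, 2 members were higher, Pgk1 and Ldha, with 15.8% of all genes, and the medians were 0.78 and 0.14. Groups did not overlap for 9 members on the deposited FPKM (all but Pfkp), against 56.8% of all genes, and for 4 members on scaled FPKM (Aldoa, Pgk1, Pkm and Ldha), against 18.9%. Counting the copies, Pkm overlapped on scaled FPKM too, and the 2 scaled calls stayed (Pgk1, adjusted p = 0.0145, and Ldha, adjusted p = 0.0455).

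Pgk1 was at 1.03, 1.35, 1.13 and 0.394 FPKM in Pdgfra-tdT bleomycin mice, below each of the Acta2-tdT bleomycin mice (17.9 to 35.4 FPKM). The log2 difference between the lines was 3.81 ± 0.47 (SE, limma, adjusted p = 9.91e-05) on deposited and 1.32 ± 0.29 (SE, adjusted p = 0.00821) on scaled FPKM. Ldha was at 102, 22.2, 23.4 and 3.45 FPKM in Pdgfra-tdT bleomycin mice, with mouse 5 highest and mouse 8 lowest. The log2 difference was 4.71 ± 1.03 (SE, adjusted p = 0.00171) on deposited and 2.06 ± 0.67 (SE, adjusted p = 0.0373) on scaled FPKM. The scaled Ldha call was lost when any 1 of the 4 Acta2-tdT bleomycin mice or Pdgfra-tdT bleomycin mouse 6 or mouse 7 was left out.

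The other 8 members were not called on scaled FPKM. Scaled Pkm was 13.1, 12.9, 16.2 and 2.64 FPKM in them against 20.7 to 39.5 FPKM in Acta2-tdT mice, a log2 difference of 1.51 ± 0.62 (SE, limma, adjusted p = 0.0833). It was called with mouse quality weights (adjusted p = 0.0329) and with all 16 mice in 1 fit (adjusted p = 0.0382), and not with the copies added (adjusted p = 0.177). Scaled Aldoa was 23.7, 23.5, 23.6 and 4.14 FPKM against 30.7 to 45.3 FPKM, a log2 difference of 1.21 ± 0.66 (SE, adjusted p = 0.175). Mouse 8 was the lowest for both genes. Scaled Gapdh overlapped between the lines, with 47.6 FPKM in Pdgfra-tdT mouse 7 (log2 difference 0.63 ± 0.57 SE, adjusted p = 0.405), and its deposited call was lost with the copies added (adjusted p = 0.0927). Its scaled values then ran from 48.1 to 60.2 FPKM in Acta2-tdT and from 45.5 to 212 FPKM in Pdgfra-tdT bleomycin mice, and the log2 difference turned to -1.14 (adjusted p = 0.212). Slc2a1 was at 0.170, 0.404, 1.98 and 0.171 FPKM in Pdgfra-tdT bleomycin mice, and without mouse 7 its scaled log2 difference between the lines went from 0.84 (adjusted p = 0.104) to 1.19 (adjusted p = 0.0167). Hk1 and Hk2 stayed between 0.0432 and 0.291 FPKM in Pdgfra-tdT bleomycin mice, near background. Beside these values, the endothelial markers summed to 5.72 to 12.1 scaled FPKM in Acta2-tdT and 10.4 to 505 in Pdgfra-tdT bleomycin mice, with 4 of 6 tested higher in Pdgfra-tdT cells on scaled FPKM. On deposited FPKM, 0 of 6 were called in either direction (limma, with 0 at an unadjusted p under 0.05). Smooth muscle markers were higher in Acta2-tdT cells for 7 of 7, and PDGFRa fibroblast markers for 5 of 6 tested, with scaled sums of 219 to 333 FPKM in Acta2-tdT and 4.08 to 57.0 FPKM in Pdgfra-tdT bleomycin mice. On deposited FPKM, proliferation markers were higher in Acta2-tdT cells for 8 of 8 tested and leukocyte markers for 11 of 13, beside 71.0% of all genes. Scaled sums of proliferation markers were 20.5 to 28.5 FPKM in Acta2-tdT and 7.64 to 18.2 FPKM in Pdgfra-tdT bleomycin mice. Those of leukocyte markers overlapped, at 925 to 1644 and 782 to 2380 FPKM. The part of other cells and of proliferation in the difference between lines was not tested.

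**Figure D5:**
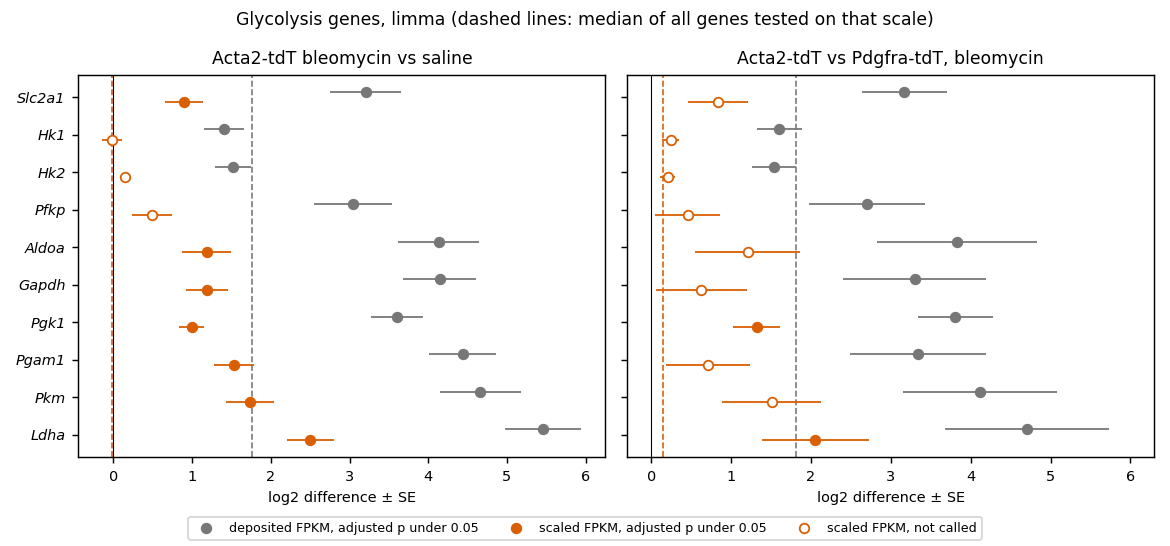
Log2 differences of the 10 glycolysis genes (horizontal axis, on log2 of FPKM + 1) with standard errors, on deposited (grey) and scaled (orange) FPKM, for bleomycin against saline in Acta2-tdT cells and for the lines with bleomycin. Filled points have an adjusted p under 0.05, and dashed lines are medians of all genes tested. Scaling moves Ldha in Acta2-tdT cells (bleomycin minus saline) from 5.46 to 2.50 and Hk1 from 1.40 to -0.02.

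The third comparison was bleomycin against saline in Pdgfra-tdT cells. Of the 7 members tested, 0 passed the threshold on either scale (limma), and 0 had an unadjusted p under 0.05. Only 0.0275% of the 7275 genes tested were called higher on deposited and 0.0275% on scaled FPKM. The members' median log2 difference was 1.50 on deposited FPKM, against 0.02 over all genes, and 1.07 against -0.25 on scaled FPKM. Slc2a1, Hk1 and Hk2 were too low to be tested.

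Scaled Pkm was 2.09, 1.95, 5.31 and 3.19 FPKM in Pdgfra-tdT saline mice against 13.1, 12.9, 16.2 and 2.64 FPKM with bleomycin. Bleomycin mice 5, 6 and 7 were above all saline mice and mouse 8 was among them, and the exact permutation p was 0.0857. After adding the copies, scaled Pkm was 5.81, 7.11, 6.82 and 8.21 FPKM against 13.4, 14.7, 23.5 and 8.58 FPKM, so every bleomycin mouse was above every saline mouse (log2 difference 0.94, exact permutation p = 0.0286, limma adjusted p = 0.776). Scaled Ldha was 4.66, 5.67, 18.8 and 6.54 FPKM against 36.2, 21.9, 27.1 and 5.95 FPKM, with the same order (exact permutation p = 0.0857). Its log2 difference with the copies added was 0.56 (exact permutation p = 0.20). Scaled Pgam1 was 3.31, 5.04, 8.85 and 4.42 FPKM against 11.5, 10.9, 23.2 and 6.41 FPKM, and mouse 8 again fell within the saline range (exact permutation p = 0.0571). That overlap rested on saline mouse 3, without which the saline range was 3.31 to 5.04 FPKM. With any 1 mouse left out, 0 members were called (limma). Scaled Pgk1 had 1.43, 0.743, 4.05 and 0.571 scaled FPKM against 0.367, 1.33, 1.30 and 0.678, overlapping groups and a log2 difference of -0.36 (adjusted p = 0.776). The size of that difference rested on saline mouse 3, without which Pgk1 was too low to be tested. Its log2 difference without that mouse was -0.0060 on scaled FPKM, and on deposited FPKM it went from -0.18 to 0.30.

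Markers of other cells also varied between the Pdgfra-tdT mice. Leukocyte markers summed to 1390, 2380, 2036 and 782 scaled FPKM in bleomycin mice 5 to 8 and to 59.1 to 256 scaled FPKM in saline mice. On deposited FPKM, 9 of 11 tested had an unadjusted p under 0.05 (limma), beside 312 of the 7275 genes tested, and 0 were called after adjustment. Saline mouse 3, the highest saline mouse for Pfkp, Aldoa, Pgk1, Pgam1, Pkm and Ldha, had 493 scaled FPKM of endothelial markers against 10.3 to 25.1 in the other 3. Bleomycin mouse 5 had 505. With mouse quality weights, 4 of the 7 members were higher with bleomycin on the deposited FPKM (Aldoa, Pgam1, Pkm and Ldha), beside 5.59% of all genes tested, and 5 on the scaled (with Pfkp), beside 20.6%. The scaled log2 difference of Aldoa was then 2.32 (adjusted p = 0.0107). The scaled weights were 0.130 for saline mouse 3, 0.247 for bleomycin mouse 5 and 0.235 for bleomycin mouse 8, and 1.37 to 4.88 for the other 5 mice. With saline mouse 3 and bleomycin mouse 5 left out, 0 of 5 members and 0 of the 5418 genes tested were called on either scale. The part of the other cells was not tested.

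The lines were also compared in saline-treated lung. Of 6 members tested, 0 were called on either scale (limma), with 1, Pkm, at an unadjusted p under 0.05 on each. So were 1116 (deposited) and 1282 (scaled) of all genes tested. Of the 8153 genes tested, 2.72% were higher in Acta2-tdT cells on deposited and 3.20% on scaled FPKM. Pkm was at 1.27, 1.19, 6.47 and 2.34 FPKM in Pdgfra-tdT saline mice and at 6.59, 4.28, 6.99 and 12.8 FPKM in Acta2-tdT saline mice, and only Pdgfra-tdT mouse 3 reached the Acta2-tdT range. The scaled log2 difference was 1.19 ± 0.39 (SE, adjusted p = 0.171), and scaled values did not overlap. Without Pdgfra-tdT saline mouse 3, 4 of 6 members were higher in Acta2-tdT cells on both scales, beside 24.4% (deposited) and 23.5% (scaled) of the 7356 genes tested. These were Pfkp, Aldoa, Pkm and Ldha, with scaled log2 differences of 0.86, 1.95, 1.42 and 1.17 (adjusted p = 0.0138, 0.00511, 0.00705 and 0.0237). With the copies also added, Pfkp (0.86) and Aldoa (1.82) were called higher on both scales, and scaled Gapdh was called lower by a log2 difference of -0.93 (adjusted p = 0.0493). Pkm (0.57, adjusted p = 0.119) and Ldha (0.28, adjusted p = 0.468) were then not called on scaled FPKM, and Ldha overlapped, with 14.5 to 24.5 FPKM in Acta2-tdT and 14.1 to 15.2 FPKM in Pdgfra-tdT saline mice. Leukocyte markers summed to 1270 to 1776 scaled FPKM in Acta2-tdT and 59.1 to 256 in Pdgfra-tdT saline mice, and with all 8 mice 4 of 12 tested were higher in Acta2-tdT cells, as were 7 of 7 smooth muscle markers. The part of these cells in the difference was not tested.

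Whether bleomycin acted differently in the lines was tested as the interaction of line and treatment over all 16 mice. On the deposited FPKM the bleomycin effect was larger in Acta2-tdT cells for 8 of 10 members, against 36.6% of the 16605 genes tested. On scaled FPKM this held for 0 of 10 (limma), with 1.33% of all genes called higher. Of the members 1, Pgk1, had an unadjusted p under 0.05, as did 3165 of the 16605 genes tested. The members' median interaction was 2.85 on deposited FPKM, against 1.05 over all genes, and 0.37 against -0.25 on scaled FPKM. Pgk1 had the largest value on both scales, 3.78 ± 0.60 (SE, adjusted p = 0.000398) deposited and 1.36 ± 0.46 (SE, adjusted p = 0.131) scaled. Ldha followed with 3.77 ± 1.20 (SE, adjusted p = 0.0226) and 1.28 ± 0.82 (SE, adjusted p = 0.41). Pfkp (2.23 ± 0.90 SE, adjusted p = 0.0615) and Aldoa (2.36 ± 1.28 SE, adjusted p = 0.148) did not pass on the deposited FPKM. With 1 of the 16 mice left out, the deposited count ran from 4 (without Acta2-tdT bleomycin mouse 7 or mouse 8, beside 23.8% of all genes in both cases) and 5 (without Acta2-tdT bleomycin mouse 5, beside 29.7%) to 10 (without Pdgfra-tdT bleomycin mouse 5, beside 49.6%). Hk1 and Hk2 were not tested when any 1 of the Acta2-tdT bleomycin mice was left out. The call of Pkm was lost in 12 of the 16 cases, without any of Acta2-tdT saline mice 1, 2 and 3, Acta2-tdT bleomycin mice 5, 7 and 8, Pdgfra-tdT saline mice 1, 3 and 4 or Pdgfra-tdT bleomycin mice 6, 7 and 8 (adjusted p = 0.05002 to 0.102). That of Ldha was lost without Acta2-tdT bleomycin mouse 7 or mouse 8 (adjusted p = 0.0516 and 0.0534).

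Further enzymes of glycolysis, of pathways beside it and of the hypoxia response were read in Acta2-tdT cells against the 70.4% (deposited) and 23.9% (scaled) of all genes called higher. On scaled FPKM, 4084 of the 12523 genes tested were called lower. Of 21 glycolysis enzymes outside the 10 members, 14 were too low to be tested, and of the other 7, 7 were higher with bleomycin on deposited and 4 on scaled FPKM (median log2 differences 3.53 and 0.74). Eno1, the enolase between Pgam1 and Pkm, went from 5.18 to 12 FPKM to 134 to 432 FPKM, with a scaled log2 difference of 2.11 ± 0.29 (SE, adjusted p = 0.000182). Bpgm, which makes 2,3-bisphosphoglycerate and is best known from red cells, went from 0.211 to 1.16 FPKM to 22.9 to 69.9 FPKM, and its scaled difference was 1.94 ± 0.25 (SE, adjusted p = 0.000142). The erythroid markers, led by Hbb-bs, were higher for 4 of 4 tested genes on deposited FPKM (median 2.65) and for 0 on scaled FPKM (limma, with 0 at an unadjusted p under 0.05), and the part of red cells in the Bpgm values was not tested. Tpi1, the triosephosphate isomerase (1.31 ± 0.27 SE), and Gpi1, the glucose phosphate isomerase (0.74 ± 0.22 SE), were the others that rose on the scaled FPKM. Against Pdgfra-tdT bleomycin cells, scaled Bpgm was higher by 2.41 ± 0.29 (SE, adjusted p = 0.000777), and Eno1, Tpi1 and Eno3, the muscle enolase, were also higher. Between the lines with saline, 4 of these enzymes could be tested and 1 was called, Tpi1 (scaled log2 difference 1.80 ± 0.33 SE, adjusted p = 0.0212), while 3 had an unadjusted p under 0.05.

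Regulators of glycolytic flux were higher for 9 of 9 tested genes on deposited FPKM, while 3 rose (beside 23.9% of all genes) and 1 fell on scaled FPKM (median 0.43). Bsg, the chaperone of the lactate carriers, rose by 1.25 ± 0.27 (SE, adjusted p = 0.00298) on the scaled log2 scale. Pdk3, a kinase that blocks the entry of pyruvate into the citrate cycle, rose by 1.12 ± 0.17 (SE, adjusted p = 0.000405). Pfkfb4 rose by 0.43 ± 0.11 (SE), and Pfkfb3, which makes the activator of phosphofructokinase, fell by 0.37 (adjusted p = 0.0119), although its deposited FPKM was higher by 0.91. The mitochondrial pyruvate carrier genes Mpc1 (0.69, adjusted p = 0.0696) and Mpc2 (0.44, adjusted p = 0.10) did not pass on the scaled FPKM. Ldhb was not called on scaled FPKM either (-0.81 ± 0.33 SE, adjusted p = 0.0566).

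Counts for neighbouring pathways stand beside the same 70.4% and 23.9% of all genes. Of the pentose phosphate genes, 7 of 7 tested were higher on deposited and 5 on scaled FPKM, with a scaled median of 1.06 close to the 1.09 of the glycolysis members. Pgd, which makes NADPH, rose by 1.73 ± 0.29 (SE, adjusted p = 0.0007) on the scaled log2 scale, Pgls by 1.65 ± 0.37 (SE) and the transketolase Tkt by 1.23 ± 0.20 (SE), while Taldo1 was at -0.03 ± 0.35 (SE). Of the pyruvate dehydrogenase and citrate cycle genes, 19 of 19 were higher on deposited and 10 on scaled FPKM (scaled median 0.57), with Mdh2 at 1.69 ± 0.36 (SE), Sdhc at 0.83 ± 0.23 (SE), and Idh3g (0.24) and Pdhb (0.22) not called. Of 7 gluconeogenesis genes, 3 were tested, all were higher on deposited FPKM and 1 on scaled FPKM, G6pc3 (1.09 ± 0.20 SE), whereas Pck2 was at 0.13 and Pcx at 0.02. Of 12 common reference genes, 11 were higher on deposited FPKM, and 6 rose and 1 fell on scaled FPKM (scaled median 0.75), with Actb (1.77 ± 0.27 SE), Rplp0 (1.85 ± 0.32 SE) and Ywhaz (1.75 ± 0.29 SE) above Gapdh in their scaled difference and B2m at 0.40 ± 0.32 (SE). Rises on the scaled FPKM were thus also found outside glycolysis.

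Genes tied to hypoxia went several ways, and are also to be read against the 70.4% and 23.9%. In the hypoxia-inducible factor pathway, 7 of 8 tested genes were higher on deposited FPKM, and 3 rose and 2 fell on scaled FPKM (scaled median 0.29). Hif1a, the oxygen-sensitive subunit, was higher by 3.01 ± 0.30 (SE, adjusted p = 1.74e-05) on deposited FPKM. Its scaled difference of 0.49 ± 0.19 (SE, adjusted p = 0.0521) did not pass the threshold. Egln2, a prolyl hydroxylase that marks the subunit for decay, rose by 1.13 ± 0.26 (SE), Myc, placed in this list as a further activator of glycolysis, by 0.95 ± 0.14 (SE, adjusted p = 0.00032), and Epas1, which is abundant in endothelial cells, fell by 1.22 (adjusted p = 0.000102). Of the hypoxia-induced genes outside glycolysis, 10 of 11 tested were higher on deposited FPKM, and 4 rose and 2 fell on scaled FPKM (scaled median 0.09). P4ha2, a collagen prolyl hydroxylase, rose by 1.80 ± 0.29 (SE, adjusted p = 0.000572), the lipid droplet gene Plin2 by 1.57 ± 0.35 (SE), Ndrg1 by 0.88 ± 0.17 (SE) and P4ha1 by 0.40 ± 0.12 (SE). Adm, which encodes the vasodilator adrenomedullin, was at 0.09 (adjusted p = 0.83) and Higd1a at 0.55 (adjusted p = 0.17), whereas Mxi1 fell by 0.56 and Ero1l by 0.58. P4ha2 also had a larger scaled bleomycin effect in Acta2-tdT than in Pdgfra-tdT cells (interaction 2.12 ± 0.52 SE, adjusted p = 0.0471).

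Over the 16 mice, the scaled log2 levels of members moved together to different degrees. As a description over mice of 4 groups, which share group and treatment, Pearson's r was 0.959 between Pkm and Ldha, 0.933 between Aldoa and Pkm and -0.00956 between Hk1 and Gapdh, with a median of 0.617 over all pairs. The genes most like the mean of the members, among 10354 genes compared, were Mlf2 (r = 0.974), Rbm3 (r = 0.973), Lmna (r = 0.968), Arpc1b (r = 0.968) and Eno1 (r = 0.964).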

How the data were processed

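RNA of tdTomato-positive lung cells of 16 mice was sequenced. Per the labels, the authors used TopHat2 2.1.1 (on Bowtie2 2.2.9) to align reads to mm10 (GRCm38), then computed FPKM of genes in Cufflinks 2.1.1. The deposited FPKM were used as they stand. They hold no counts, so the depth is unknown, no interval that needs counts was given, and no count model was used. Rows of 1 gene were summed, and 15 genes that Cufflinks did not mark as computed in every mouse were left out.

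Scaled FPKM are FPKM multiplied by the median nuclear protein-coding FPKM sum of the 16 mice over that of the mouse. A gene entered a comparison of 8 mice when 4 or more of them had 1 FPKM or more (of 16 mice for the interaction). Genes were tested with limma 3.58.1 (lmFit, eBayes with trend) on log2(FPKM + 1), without covariates, with Benjamini-Hochberg adjustment over all genes tested and a threshold of 0.05. A difference on this scale understates the change of low genes. Exact permutation p-values are two-sided, over 70 labellings. The labels give each mouse as a separate sample. The members and gene lists were chosen with earlier results of these data known.

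The plan was to name the 4 genes highest in mean FPKM of each other list. It added up to 5 genes of the lists of other enzymes, flux regulators and hypoxia-induced genes called alike on both scales, and the 5 genes most correlated with the members. The first part was followed in part only. No proliferation, endothelial or epithelial marker was named. Of the smooth muscle and erythroid markers only Acta2 and Hbb-bs were named, and of the PDGFRa fibroblast markers only Pdgfra and Col1a1. Fewer than 4 gluconeogenesis genes were named. Some further list genes (Pcx, Ctss, Ldhb, Mxi1 and Ero1l) were named after their values were seen. Copies were found by aligning member transcripts to GENCODE transcripts (at least 200 bases, 90% identity), and promoter windows came from RefSeq. The procedure was tested on simulated data of 12523 genes for the Acta2-tdT comparison. Of 200 changed genes it found 94 at a log2 change of 1, 181 at 2 and 192 at 3, with 3, 16 and 13 false calls. R 4.3.3, Python 3.11.15, pandas 2.3.3, NumPy 2.4.6, SciPy 1.17.1 and matplotlib 3.10.9 were used. Alternatives were a pseudocount of 0.1, no filter, mouse quality weights, all mice in 1 fit, the largest row per gene, other scalings, a replicate block, leaving out mice and, chosen after the values were seen, adding the FPKM of copies to each member and subtracting the receptor median.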

Additional observations from a re-analysis of the deposited data

Results flagged for a closer look

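In 13 of 80 sets of 4 mice (10 members, 4 groups, deposited and scaled FPKM), 1 mouse lay further from the other 3 than Dixon's 95% limit. For independent sets of normal values, chance gives about 1 in 20. These values were not log-transformed, each gene counts on both scales and the same mice recur, so 13 of 80 cannot be set against that rate. The mouse that stood apart most often was Pdgfra-tdT saline mouse 3, the highest of its group for Pfkp (4.02 FPKM), Aldoa (26.7 FPKM, 21.9 scaled), Pgk1 (4.93 FPKM), Pgam1 (10.8 FPKM) and Ldha (22.9 FPKM, 18.8 scaled). The same mouse had 493 scaled FPKM of endothelial markers, against 10.3 to 25.1 in the other 3. Slc2a1 stood apart in Pdgfra-tdT bleomycin mouse 7, with 1.98 FPKM (2.29 scaled). Hk2 was highest in Acta2-tdT saline mouse 3, with 0.265 FPKM, a level near background. Aldoa was lowest in Pdgfra-tdT bleomycin mouse 8, with 4.14 scaled FPKM, and Pgk1 in Acta2-tdT bleomycin mouse 5, with 3.37 scaled FPKM. Ldha was highest in Acta2-tdT saline mouse 4, with 22.0 scaled FPKM.

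The effect of bleomycin on the deposited FPKM differed between the lines for 8 of 10 members by the interaction test, against 36.6% of the 16605 genes tested. Hk1 and Hk2 entered that test only through their values in Acta2-tdT bleomycin mice. Slc2a1 needed those mice too, since elsewhere only Acta2-tdT saline mouse 4 (1.07 FPKM) and Pdgfra-tdT bleomycin mouse 7 (1.98 FPKM) reached 1 FPKM. The differences, larger in Acta2-tdT cells in each case, were 2.96 for Slc2a1, 1.41 for Hk1, 1.42 for Hk2, 2.88 for Gapdh, 3.78 for Pgk1, 2.93 for Pgam1, 2.83 for Pkm and 3.77 for Ldha on the log2 scale. On scaled FPKM 0 of these passed (limma), with 1 at an unadjusted p under 0.05, beside 3165 of the 16605 genes tested.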

How the results depend on the processing

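Among single members called, 247 values under other settings and 316 with 1 mouse left out kept their direction and their side of the threshold, and 12 and 20 lost the call. The 1 that reversed was scaled Gapdh in Acta2-tdT cells, at -1.12 (bleomycin against saline) with the FPKM of near-identical copies added to each member, a step chosen after seeing the data. This left the counts of members called within 1 of those reported. Together with leaving out Pdgfra-tdT saline mouse 3, it gave 2 deposited and 3 scaled calls between the lines with saline, in place of the 4 without that mouse alone. With mouse quality weights, members called in Pdgfra-tdT cells (bleomycin against saline) went from 0 to 4 on deposited and 5 on scaled FPKM (beside 5.59% and 20.6% of all genes called higher), and those between the lines with saline from 0 to 4 on both (beside 27.0% and 26.6%). Between the lines with bleomycin, the 2 scaled calls (beside 15.8% of all genes called higher) became 1 without the filter (1.35%), 1 with a replicate block (10.8%) and 1 when scaled to the upper quartile (9.27%). They became 3 with quality weights (24.5%), 3 with all 16 mice in 1 fit (12.1%) and 4 with the receptor median subtracted (24.7%). That subtraction, a step chosen after seeing the data, also gave 1 scaled interaction call. Between the lines it added Hk1 and Hk2, and the interaction call was Hk2. Outside the Acta2-tdT bleomycin mice, most Hk1 and Hk2 values lay below the receptor median of their mouse and were removed. These calls therefore rest on that step and on the filter. The replicate block lowered the deposited interaction calls from 8 to 4 (with 29.7% of all genes called higher in place of 36.6%), but the replicate numbers did not pair the mice, since correlations of their deviations ran from -0.307 to 0.157. Without the 100 genes largest in FPKM, the median share of the members was 0.224% (saline) and 0.712% (bleomycin) in Acta2-tdT and 0.207% and 0.352% in Pdgfra-tdT mice. The cause was not tested.

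With 1 mouse left out, calls for Acta2-tdT bleomycin against saline ranged from 8 to 10 deposited and 7 to 8 scaled, for Pdgfra-tdT from 0 to 0 on both, for the lines with saline from 0 to 4 on both, for the lines with bleomycin from 8 to 10 and 1 to 2, and for the interaction from 4 to 10 and 0 to 0. With all mice, 70.4% (deposited) and 23.9% (scaled) of all genes were called higher for Acta2-tdT and 0.0275% on both for Pdgfra-tdT. These shares were 2.72% and 3.20% for the lines with saline, 71.0% and 15.8% with bleomycin, and 36.6% and 1.33% for the interaction. Such shares also moved with the mouse left out. The 8 calls were reached where an Acta2-tdT bleomycin mouse was left out, because Hk1 and Hk2 were then not tested. Leaving out both Pdgfra-tdT mice with high endothelial markers, chosen after seeing the data, gave 0 of 5 tested members and 0 of 5418 genes in Pdgfra-tdT cells and 9 deposited interaction calls, beside 49.6% of the 15678 genes tested. Scaled Aldoa in Acta2-tdT cells was not called with all 16 mice in 1 fit (adjusted p = 0.166). Under other scalings the median of all genes in that comparison was -0.11 (upper quartile) and 0.21 (receptor median subtracted), and the 7 scaled calls kept their sign there. FPKM without counts limit what can be said of Slc2a1, Hk1 and Hk2 near background.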
